A study of Homo sapiens with 32 samples.

Results

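The 46 genes described here are the core of the mitotic programme: the cyclins, phosphatases and kinases that start mitosis, the spindle checkpoint, the kinetochore, the mitotic kinesins and the proteins that compact chromosomes. They were chosen by name, as the lines of the deposited table that carry their symbols, and not by a cut on a measured value. The choice was made with earlier results of these data known. All 46 were found among 24249 gene IDs, and all 46 were among the 15827 genes tested. RNA was sequenced from MM.1S cells, a line grown from a human plasma cell cancer (multiple myeloma), in 8 libraries of 4 lanes each. In the ATRA+Cfz group (1 library) cells received a 1 h pulse of carfilzomib (Cfz), an irreversible inhibitor of the proteasome, and then 12 h in fresh medium with ATRA (all-trans retinoic acid, a ligand of the retinoic acid receptors) at 10 µM. In the ATRA group (3 libraries) the pulse was DMSO, the vehicle, and ATRA followed. In the Cfz group (1 library) the pulse was carfilzomib and DMSO followed, and in the DMSO group (3 libraries) both steps were DMSO. All groups are 1 cell line at 1 time, and the dose of carfilzomib is not stated in the labels. Nothing says whether the libraries of a group came from separate cultures, so p-values measure only the spread between these libraries, which may be technical.

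Mitosis begins when CDK1, bound to cyclin B, is freed of its inhibitory phosphates by the CDC25 phosphatases. Chromosomes condense, spindle fibres attach at the kinetochores, and a checkpoint built on BUB and MAD proteins holds back CDC20 until every chromosome is attached. CDC20 then switches on the anaphase-promoting complex, which marks securin and cyclin B for destruction by the proteasome, the enzyme that carfilzomib blocks. Most of these genes are transcribed late in the cell cycle, through promoters that carry a CHR (cell cycle genes homology region, read by the MuvB complexes, which work with B-MYB and FOXM1) and CCAAT boxes (read by NF-Y). In bulk RNA, fewer cells near mitosis and less mitotic RNA per cell cannot be told apart.

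The 7 promoter stretches below are the 150 bases before the annotated start. They are shown because they carry or lack TTTGAA or TTCGAA, forms of the CHR, in genes whose RNA is followed through the results. They come from the RefSeq promoter table (GRCh38.p14) and are written 5′ to 3′ on the strand of the gene. Capitals mark TTTGAA and TTCGAA (forms of the CHR) and CCAAT, which reads ATTGG when it lies on the other strand. Other forms of the CHR were not searched, so a promoter without TTTGAA or TTCGAA may still carry a CHR. For CDC25C and CDC25B, which have 4 entries each, the entry with a CHR form nearest the start is printed. CDC25B was added to the set after its values were seen.
CCNB2: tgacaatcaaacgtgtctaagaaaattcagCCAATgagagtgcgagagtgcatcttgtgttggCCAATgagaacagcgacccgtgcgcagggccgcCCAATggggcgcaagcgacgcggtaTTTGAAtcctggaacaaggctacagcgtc
PLK1: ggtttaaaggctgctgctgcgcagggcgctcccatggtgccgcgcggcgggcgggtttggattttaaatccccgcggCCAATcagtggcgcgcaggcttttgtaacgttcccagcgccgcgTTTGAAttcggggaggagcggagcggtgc
CDC20: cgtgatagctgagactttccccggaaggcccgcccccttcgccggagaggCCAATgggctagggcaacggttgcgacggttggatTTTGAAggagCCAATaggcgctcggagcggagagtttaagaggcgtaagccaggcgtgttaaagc
CDC25C: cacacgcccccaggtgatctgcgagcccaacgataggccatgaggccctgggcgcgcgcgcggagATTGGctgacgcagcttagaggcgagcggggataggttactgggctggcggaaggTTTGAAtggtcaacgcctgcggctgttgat
MKI67: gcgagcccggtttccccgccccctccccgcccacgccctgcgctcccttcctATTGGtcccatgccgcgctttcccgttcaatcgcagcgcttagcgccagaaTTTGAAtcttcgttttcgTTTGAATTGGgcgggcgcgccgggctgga
CCNB1: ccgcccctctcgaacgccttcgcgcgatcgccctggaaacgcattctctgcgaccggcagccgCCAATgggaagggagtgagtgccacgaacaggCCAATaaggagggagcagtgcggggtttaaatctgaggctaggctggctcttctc
CDC25B: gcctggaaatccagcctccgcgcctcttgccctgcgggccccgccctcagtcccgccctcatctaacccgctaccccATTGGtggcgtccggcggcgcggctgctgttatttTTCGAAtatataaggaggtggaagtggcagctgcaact
They lie at chr15:59104996-59105145 (plus strand, cyclin B2), chr16:23678739-23678888 (plus, polo-like kinase 1), chr1:43358831-43358980 (plus), chr5:138331805-138331954 (minus), chr10:128126424-128126573 (minus, the Ki-67 antigen), chr5:69167000-69167149 (plus, cyclin B1) and chr20:3796160-3796309 (plus). TTTGAA starts 29 bases before the start in CCNB2 and in PLK1, and 30 bases before it in CDC25C. In CDC20 the nearer of its copies starts 65 bases before the start, between a pair of CCAAT boxes. MKI67 has 2 copies, 47 and 29 bases before the start, and the second runs into a CCAAT box on the other strand, so that they share bases. CCNB1 has CCAAT at 87 and 55 bases before the start and neither TTTGAA nor TTCGAA in its window. CDC25B has TTCGAA 38 bases before the start.

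Of the 46 genes, 40 had an entry in the promoter table (54 promoters of 300 bases: 250 before the start and 50 after it), and AURKA, BUB3, TTK, BIRC5, TPX2 and FOXM1 had none. Both strands were searched. TTTGAA was present in 28 of the 40 genes (70.0%), against 18.2% of the 27305 genes in the table and 14.3% of the 10603 of them that were tested here. TTCGAA, which is its own reverse complement, was present in 3 of the 40 (7.5%), against 1.82% of the table. CCAAT was present in 31 of the 40 (77.5%), against 39.7%, and a CHR form together with CCAAT in 22 (55%), against 7.85%. AURKB, CCNA2, CCNB1, CDC25A, CENPE, KIF20A, KIF2C, NCAPH, PTTG1 and SPC24 had neither TTTGAA nor TTCGAA in these windows. Other forms of the CHR were not searched, so these genes are not shown to lack one. Of the 41 TTTGAA matches in the members' promoters, 22 (53.7%) started within 50 bases before the start, against 920 of 6238 (14.7%) over all promoters, a window chosen after the positions were seen. A match is a description of letters and not of a bound site.

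**Figure D1:**
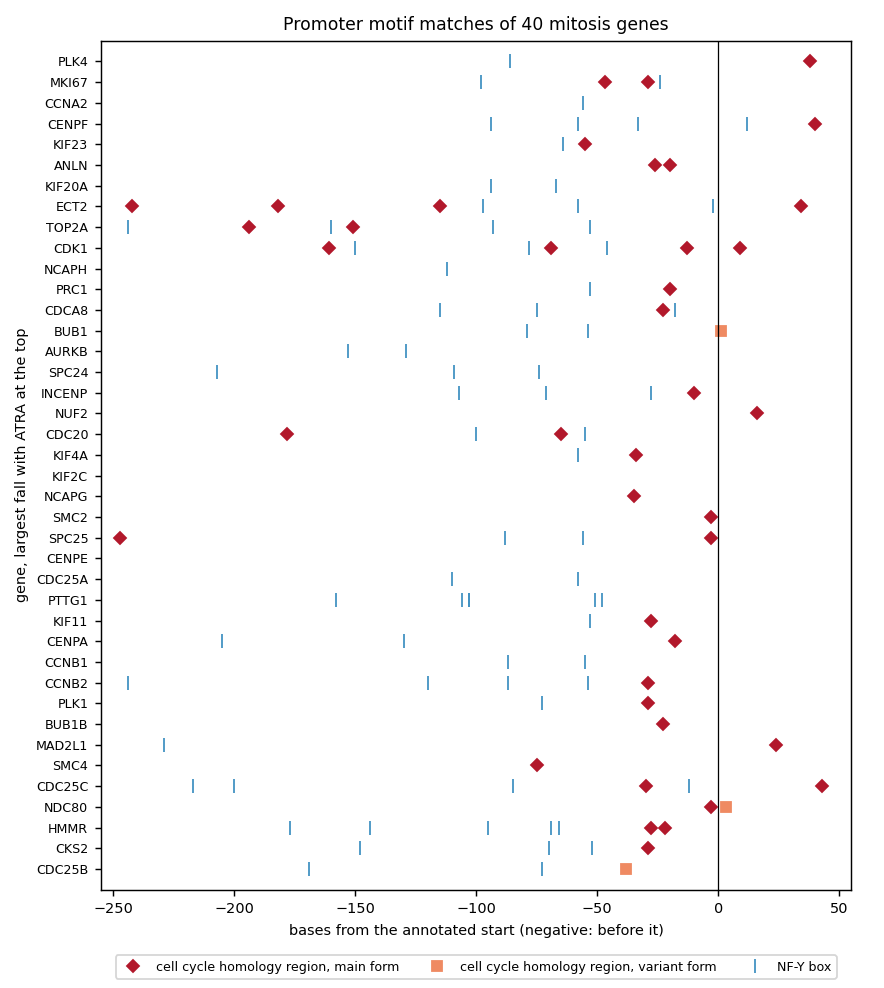
Position of each motif match (bases from the annotated start, negative before it) in the promoter windows of the 40 genes with an entry, ordered with the largest fall with ATRA at the top. Diamonds are TTTGAA, squares TTCGAA (the main and variant forms of the CHR) and ticks CCAAT (the NF-Y box); 22 of the 41 diamonds fall within 50 bases before the start, and they occur from the top to the bottom of the order.

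Libraries held 14136937 to 17155331 reads, and the members had 88 to 25623 reads in a library (6.23 to 1689 FPM, fragments scaled to a total of 1000000 per lane and not to transcript length). DMSO 3 stood apart from the other DMSO libraries: its chi-square per degree of freedom was 10.5 and 11.0 against DMSO 1 and DMSO 2, which differed from each other by 1.81. It was the highest DMSO library for 46 of the 46 members (35.2% of all genes tested), by a median log2 of 0.13 over the DMSO mean. The mitochondrial share of reads was 5.72% in ATRA+Cfz, 3.67 to 3.89% in ATRA, 5.43% in Cfz, and 4.12%, 4.10% and 5.85% in DMSO 1, 2 and 3. Plasma cell markers were present as the cell line's label says (9 of 10 tested, summed 8052 to 11090 FPM, with CD27 at most 0.572 FPM). T and NK, myeloid, stromal and epithelial markers summed to at most 3.67 FPM per list and library. The processed copies and close paralogs found in the table (AURKAP1, KIF4B and CDC20P1) reached at most 0.869 FPM. Several members overlap an expressed gene on the opposite strand (CCNA2 and EXOSC9, CDC25C and FAM53C, KIF20A and both BRD8 and CDC23), and since the strand setting is not given, reads of such pairs cannot be told apart.

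ATRA against DMSO was the replicated comparison, and asks what 12 h of the retinoid did to the mitotic programme. With ATRA, 45 of the 46 genes fell and 1, CDC25B, rose. Over all genes tested, 27.4% were lower and 21.3% were higher by the same rule (limma on log2(FPM + 0.5), Benjamini-Hochberg adjusted p under 0.05 over all genes tested). The members' median log2 fold change was -0.72, against -0.03 over all genes. For the 45 genes every ATRA library lay below every DMSO library, and for CDC25B every ATRA library lay above. Over all genes tested, 31.1% separated in the first way and 25.5% in the second. The medians of the ATRA libraries were close to each other, at -0.73, -0.75 and -0.74 relative to the DMSO mean. All 3 lay outside the spread of the DMSO libraries, which had medians of -0.06, -0.07 and 0.13. Without DMSO 3 the counts were again 45 and 1, and the members' median was -0.67. The mitochondrial share was lower in ATRA than in DMSO libraries, and its part in the fall was not tested.

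**Figure D2:**
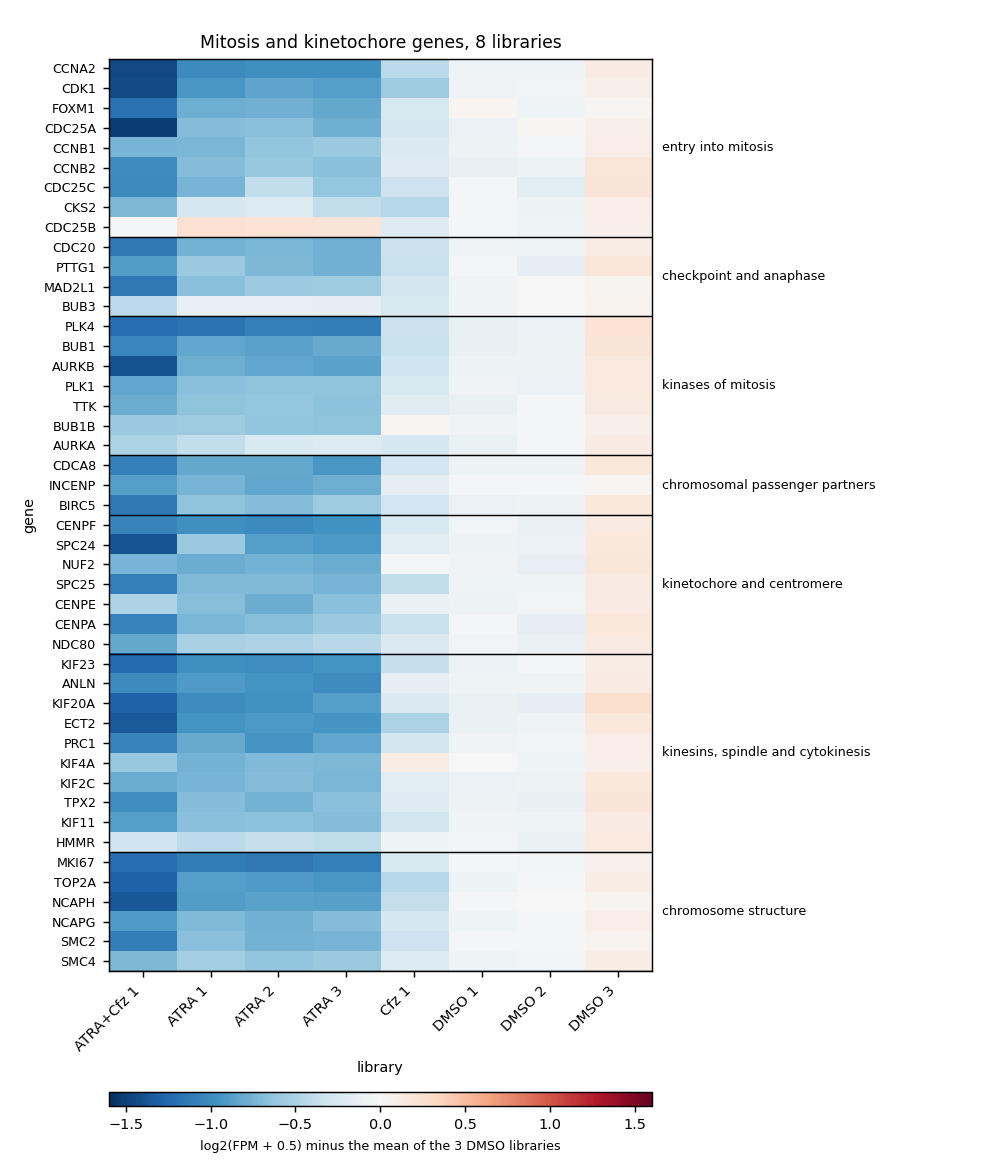
Heatmap of the 46 genes (down, by role) in the 8 libraries (across): colour gives log2(FPM + 0.5) minus the mean of the 3 DMSO libraries. The ATRA+Cfz library is the darkest blue (median -1.03), the ATRA libraries follow, Cfz is paler (median -0.27), and CDC25B is red in the ATRA libraries.

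Among the genes that start mitosis, 8 of 9 fell. CDK1, the kinase that drives entry, had 103, 109 and 107 FPM in ATRA libraries, against 189, 190 and 210 FPM in DMSO libraries. The groups did not overlap, and the ATRA level averaged 54.0% of the DMSO level. CCNA2, cyclin A2, which pairs with CDK2 in S phase and with CDK1 before mitosis, had 90.6, 93.2 and 92.7 FPM in ATRA libraries, against 176, 175 and 202 FPM in DMSO libraries (log2 -0.99 ± 0.05 SE, adjusted p = 4.4e-08, limma). Its fall was larger than those of the cyclins B, a difference between genes that was not tested. CCNB1 had 78.2, 84.0 and 86.2 FPM with ATRA, against 123, 129 and 141 FPM with DMSO (log2 -0.66 ± 0.05). CCNB2 had 38.2, 40.5 and 39.0 FPM with ATRA, against 57.3, 58.6 and 71.2 FPM with DMSO (log2 -0.66 ± 0.07). FOXM1, a transcription factor of late cell cycle genes, fell by 0.79 ± 0.04 on the log2 scale. CKS2, a small subunit that docks CDK1 to its substrates, fell by only 0.29 ± 0.06 (adjusted p = 0.0016, limma).

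The 3 CDC25 phosphatases did not move together. CDC25A, which acts at the start of S phase and again before mitosis, had 40.9, 41.6 and 38.2 FPM in ATRA libraries, against 62.1, 66.8 and 69.9 FPM in DMSO libraries (log2 -0.71 ± 0.06, adjusted p = 1e-06, limma). CDC25C, a phosphatase that activates CDK1, had 7.63, 9.87 and 8.40 FPM with ATRA, against 12.8, 11.7 and 15.2 FPM with DMSO (log2 -0.59 ± 0.12, adjusted p = 0.0019, limma). It is the lowest in reads of the 3 and had the widest error of the 46. CDC25B, the isoform that acts first in mitotic entry, had 188, 185 and 184 FPM in ATRA libraries, against 158, 152 and 169 FPM in DMSO libraries (log2 0.22 ± 0.04, adjusted p = 0.00094, limma). Its rise is small, but the groups did not overlap, and it passed in all 18 other settings tried. The ratio of CDC25B to CDC25A was 4.62 ± 0.17 in ATRA libraries and 2.41 ± 0.14 in DMSO libraries (SD, n = 3 each, exact permutation test, two-sided p = 0.1, the smallest that 3 against 3 can give). This ratio and those of the kinases below were chosen after the values were seen.

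**Figure D3:**
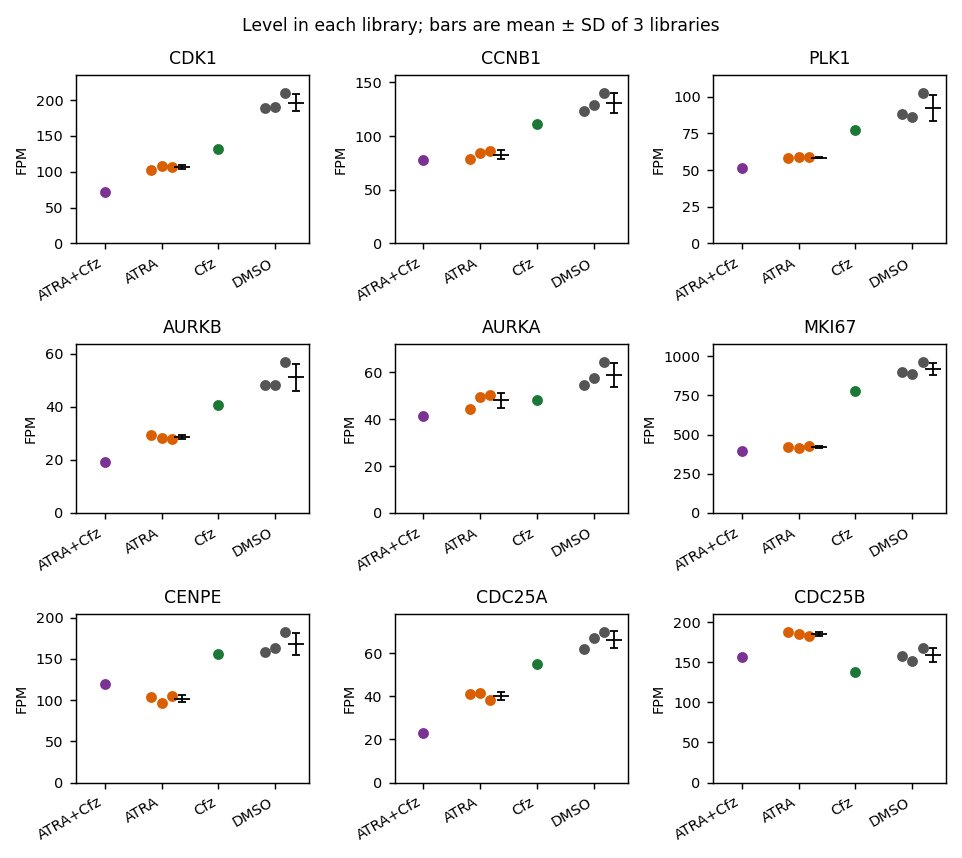
FPM of 9 members (CDK1, CCNB1, PLK1, AURKB, AURKA, MKI67, CENPE, CDC25A and CDC25B) by group, 1 point a library, with bars for the mean ± SD of the 3 ATRA and the 3 DMSO libraries. The ATRA points lie below every DMSO point in each panel but that of CDC25B, whose ATRA points (184 to 188 FPM) lie above the DMSO points (152 to 169 FPM).

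All 7 kinases of mitosis fell, by log2 changes of -1.13 to -0.29. PLK4, the master kinase of centriole duplication, fell most of all 46 genes with all libraries in the fit (log2 -1.13 ± 0.08, adjusted p = 3.7e-07, limma). It had 32.4, 34.5 and 34.2 FPM in ATRA libraries, against 68.4, 69.4 and 86.4 FPM in DMSO libraries. Without DMSO 3, MKI67 fell most, by 1.09 ± 0.02, and PLK4 fell by 1.02 ± 0.05. PLK1, which acts from entry to cytokinesis, fell less, with 58.0, 59.0 and 58.7 FPM in ATRA libraries, against 88.5, 85.9 and 103 FPM in DMSO libraries (log2 -0.65 ± 0.06). The PLK4 to PLK1 ratio was 0.576 ± 0.014 with ATRA and 0.807 ± 0.034 with DMSO (exact permutation test, two-sided p = 0.1, the smallest possible). The Aurora kinases also fell by unequal amounts. AURKB, the catalytic subunit of the chromosomal passenger complex, had 29.4, 28.4 and 28.0 FPM in ATRA libraries, against 48.2, 48.3 and 56.9 FPM in DMSO libraries (log2 -0.82 ± 0.07). AURKA, which acts at the centrosome and is switched on by TPX2, had 44.3, 49.5 and 50.3 FPM in ATRA libraries, against 54.4, 57.3 and 64.3 FPM in DMSO libraries (log2 -0.29 ± 0.07, adjusted p = 0.0044, limma). The AURKB to AURKA ratio was 0.598 ± 0.057 in ATRA libraries and 0.871 ± 0.025 in DMSO libraries (exact permutation test, two-sided p = 0.1). BUB1, the checkpoint kinase, had 191, 188 and 195 FPM in ATRA libraries, against 313, 323 and 393 FPM in DMSO libraries (log2 -0.83 ± 0.07). BUB1B, its relative in the checkpoint complex, fell by 0.62 ± 0.04 and TTK, the kinase that starts the checkpoint, by 0.64 ± 0.06.

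The checkpoint and anaphase genes were lower as well, all 4 of them, with BUB3 the least changed of the 46. BUB3, the adaptor that brings BUB1 and BUBR1 to kinetochores, had 208, 208 and 207 FPM in ATRA libraries, against 219, 227 and 238 FPM in DMSO libraries (log2 -0.13 ± 0.04, adjusted p = 0.012, limma). Its call was lost with other scalings, where the value was -0.09 to -0.10. MAD2L1, the checkpoint protein that binds CDC20, fell by 0.61 ± 0.04 on the log2 scale. CDC20, the target of the checkpoint, had 32.3, 33.0 and 32.3 FPM with ATRA, against 52.9, 52.8 and 60.1 FPM with DMSO (log2 -0.75 ± 0.06). PTTG1, securin, fell by 0.69 ± 0.08.

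Of the chromosomal passenger partners, INCENP (the scaffold), CDCA8 (borealin) and BIRC5 (survivin) fell by 0.78 ± 0.04, 0.86 ± 0.07 and 0.64 ± 0.07. All 7 kinetochore and centromere genes fell. CENPF, a large outer kinetochore protein, had 214, 209 and 217 FPM in ATRA libraries, against 412, 395 and 471 FPM in DMSO libraries (log2 -0.99 ± 0.06, adjusted p = 6.6e-08, limma), and showed the largest fall of this group. CENPE, the kinetochore kinesin, had 104, 96.8 and 105 FPM with ATRA, against 158, 163 and 183 FPM with DMSO (log2 -0.72 ± 0.06). The 4 subunits of the NDC80 complex, which binds the spindle fibre, fell by unequal amounts: SPC24 by 0.80 ± 0.10, NUF2 by 0.78 ± 0.07, SPC25 by 0.72 ± 0.06 and NDC80 itself by 0.48 ± 0.06. CENPA, the centromeric histone, fell by 0.67 ± 0.09.

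All 10 kinesins, spindle and cytokinesis genes fell, with a median log2 of -0.79. The genes of the last step, cell separation, were among the largest changes. KIF20A, the kinesin that moves the passenger complex to the midzone, had 22.5, 23.0 and 24.5 FPM in ATRA libraries, against 42.5, 41.0 and 54.5 FPM in DMSO libraries (log2 -0.95 ± 0.09). KIF23, a kinesin of the central spindle, fell by 0.98 ± 0.05, the scaffold ANLN by 0.96 ± 0.06 and ECT2, the exchange factor that sets the division plane, by 0.94 ± 0.06. PRC1, which bundles midzone fibres, fell by 0.86 ± 0.06. KIF11, which pushes the spindle poles apart, fell by 0.68 ± 0.05, KIF4A, a chromosome-bound kinesin, by 0.73 ± 0.05, KIF2C, which takes microtubule ends apart, by 0.72 ± 0.07, and TPX2 by 0.71 ± 0.07. HMMR, a spindle protein, fell least, by 0.40 ± 0.06 (adjusted p = 0.00015, limma).

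Among the chromosome structure genes, all 6 fell. MKI67 was next to PLK4 in size, and ahead of it without DMSO 3. MKI67 had 420, 413 and 428 FPM in ATRA libraries, against 899, 887 and 961 FPM in DMSO libraries (log2 -1.12 ± 0.04, adjusted p = 1.4e-09, limma). TOP2A, the topoisomerase that untangles sister chromatids, had 334, 328 and 322 FPM with ATRA, against 584, 602 and 668 FPM with DMSO (log2 -0.91 ± 0.05). Condensin subunits fell: NCAPH by 0.87 ± 0.04, NCAPG by 0.72 ± 0.05, SMC2 by 0.72 ± 0.04 and SMC4 by 0.59 ± 0.05. SMC4 was highest in reads, with 1060, 1011 and 1039 FPM with ATRA, against 1494, 1510 and 1689 FPM with DMSO.

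Cfz against DMSO compares 1 library with 3, so it has no replicate check, and the lone library is assumed to vary like the others. With Cfz, 29 of the 46 genes were lower and 0 higher by the limma test, while 17% of all genes were lower and 7.94% higher. An unadjusted p under 0.05 (limma) was reached by 34 members, and by 5743 of the 15827 genes tested. The members' median log2 change was -0.27, against -0.08 over all genes. The Cfz library lay below every DMSO library for 42 genes and above every one for KIF4A, against 46.4% and 25.3% of all genes tested. Cfz and ATRA are set against the same DMSO libraries.

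CDK1 had 132 FPM in the Cfz library, against 189, 190 and 210 FPM in DMSO libraries (log2 -0.57 ± 0.07, adjusted p = 0.00014, limma). This was the largest Cfz change of the 46. ECT2 had 67.0 FPM with Cfz, against 88.5, 90.8 and 107 FPM with DMSO (log2 -0.50 ± 0.09, adjusted p = 0.0023, limma), and TOP2A had 451 FPM, against 584, 602 and 668 FPM (log2 -0.45 ± 0.07). CKS2 had 67.4 FPM with Cfz, against 90.5, 87.4 and 99.7 FPM with DMSO (log2 -0.45 ± 0.08). It is one of the genes where the Cfz value (-0.45) lay below the ATRA value (-0.29). CCNA2, which also passed, had 137 FPM with Cfz, against 176, 175 and 202 FPM with DMSO (log2 -0.43 ± 0.08). NCAPH (-0.38 ± 0.06), SMC2 (-0.34 ± 0.06), KIF23 (-0.37 ± 0.08), MAD2L1 (-0.30 ± 0.06), BUB3 (-0.25 ± 0.05), SPC25 (-0.40 ± 0.09) and CDC20 (-0.35 ± 0.08) were lower too. Of the best-known kinases and proliferation genes, MKI67 (776 FPM, log2 -0.24 ± 0.05), BUB1 (265 FPM, -0.36 ± 0.10), AURKB (40.8 FPM, -0.32 ± 0.10), CENPF (355 FPM, -0.26 ± 0.08), PLK1 (77.0 FPM, -0.26 ± 0.09, adjusted p = 0.049, limma) and CCNB1 (111 FPM, -0.23 ± 0.08, adjusted p = 0.047) passed, the last 2 only just. CENPE (156 FPM, log2 -0.11 ± 0.08), KIF20A (38.8 FPM, log2 -0.23 ± 0.13), NUF2 (92.4 FPM, log2 -0.03 ± 0.10), BUB1B (181 FPM, log2 0.03 ± 0.06) and AURKA (48.1 FPM, log2 -0.28 ± 0.10) did not pass the test. KIF4A had 75.1 FPM in the Cfz library, against 68.6, 65.6 and 73.1 FPM in DMSO libraries (log2 0.12 ± 0.07, adjusted p = 0.24, limma). The count of lower genes was the least stable of those given here. It was 15 with median-ratio scaling (1856 over all genes tested), 18 with TMM scaling (1956) and 18 with edgeR (2057). With DESeq2 it was 10 (944 over all genes) and from lane 1 alone 13 (863). Only CCNA2, CDK1, CKS2, ECT2, KIF23, MKI67, NCAPH, SMC2 and TOP2A passed in every setting. Without ATRA 2 the count was 19 (2309 over all genes). Without DMSO 3 it was 30 (3764 over all genes), with KIF4A higher (0.16 ± 0.06, adjusted p = 0.045, limma). The mitochondrial share of the Cfz library (5.43%) is near that of DMSO 3 (5.85%) and above those of DMSO 1 and 2, and its part in these results was not tested.

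**Figure D4:**
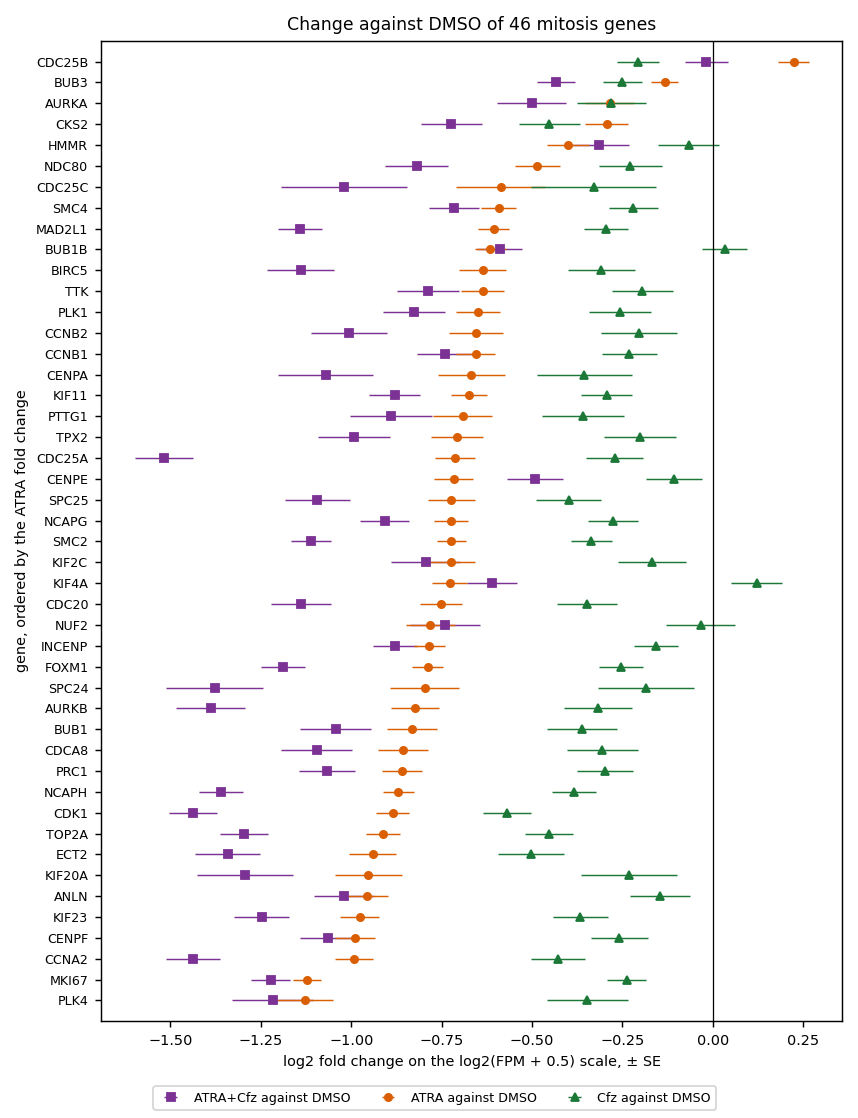
Log2 fold change against DMSO (± SE) of the 46 genes, ordered by the ATRA value, for ATRA+Cfz (squares), ATRA (circles) and Cfz (triangles). The Cfz values lie between -0.57 and 0.12, the ATRA values between -1.13 and 0.22, and the ATRA+Cfz values between -1.52 and -0.02.

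In the ATRA+Cfz library 45 of the 46 genes were lower and 0 higher than in DMSO libraries (30.5% of all genes were lower and 20% higher), with a median log2 of -1.03, against -0.05 over all genes. Without DMSO 3 the median was -0.95. CDC25B was the exception, with 157 FPM, against 158, 152 and 169 FPM in DMSO libraries (log2 -0.02 ± 0.06, adjusted p = 0.83, limma). The ATRA+Cfz library was the lowest of the 8 for 40 genes, and for 28.5% of all genes tested. CDC25A fell furthest, to 22.8 FPM in ATRA+Cfz, against 62.1, 66.8 and 69.9 FPM in DMSO libraries (log2 -1.52 ± 0.08, adjusted p = 3.8e-08, limma). CDK1 had 72.2 FPM in ATRA+Cfz, against 189, 190 and 210 FPM in DMSO libraries, and CCNA2 67.6 FPM, against 176, 175 and 202 FPM (both log2 -1.44). AURKB (19.2 FPM, log2 -1.39 ± 0.10), SPC24 (15.2 FPM, log2 -1.38 ± 0.13) and NCAPH (32.3 FPM, log2 -1.36 ± 0.06) followed. MKI67 (392 FPM, log2 -1.22 ± 0.05), CENPF (203 FPM, log2 -1.06 ± 0.08) and PLK4 (31.7 FPM, log2 -1.22 ± 0.11) were close to their ATRA levels. ECT2 (37.2 FPM, log2 -1.34 ± 0.09), KIF23 (44.1 FPM, -1.25 ± 0.08), FOXM1 (46.1 FPM, -1.19 ± 0.06), MAD2L1 (57.9 FPM, -1.14 ± 0.06) and SMC2 (112 FPM, -1.11 ± 0.06) were lower as well. TOP2A (251 FPM, log2 -1.30 ± 0.07), KIF20A (18.3 FPM, -1.29 ± 0.13), BUB1 (165 FPM, -1.04 ± 0.10), PLK1 (51.7 FPM, -0.83 ± 0.09) and CCNB1 (78.0 FPM, -0.74 ± 0.08) were lower too. AURKA (41.2 FPM, -0.50 ± 0.10), CENPE (119 FPM, -0.49 ± 0.08), BUB3 (169 FPM, -0.43 ± 0.05) and HMMR (82.8 FPM, -0.31 ± 0.08) were the least changed of the genes that passed.

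ATRA+Cfz against ATRA asks what the Cfz pulse added when ATRA followed. In ATRA+Cfz, 22 genes were lower and 1 higher than in ATRA libraries, with 20.2% of all genes lower and 10.6% higher, and a median log2 of -0.26 against -0.04 over all genes. The ATRA+Cfz library lay below all 3 ATRA libraries for 41 genes, and for 44.9% of all genes tested. CDC25A had 22.8 FPM in ATRA+Cfz, against 40.9, 41.6 and 38.2 FPM in ATRA libraries (log2 -0.81 ± 0.08, adjusted p = 3.9e-05, limma), the largest difference of the 46. SPC24 (-0.58 ± 0.13), AURKB (-0.57 ± 0.10), CDK1 (-0.55 ± 0.07), MAD2L1 (-0.54 ± 0.06), BIRC5 (-0.50 ± 0.09) and NCAPH (-0.49 ± 0.06) came next on the log2 scale. CCNA2 (-0.45 ± 0.08), CKS2 (-0.43 ± 0.08), FOXM1 (-0.40 ± 0.06), SMC2 (-0.39 ± 0.06), CDC20 (-0.39 ± 0.08), BUB3 (-0.30 ± 0.05) and TOP2A (-0.39 ± 0.07, with 251 FPM in ATRA+Cfz, against 334, 328 and 322 FPM in ATRA libraries) were lower as well. CDC25B, which had risen with ATRA alone, had 157 FPM in ATRA+Cfz, against 188, 185 and 184 FPM in ATRA libraries (log2 -0.24 ± 0.06, adjusted p = 0.0099, limma). By role, the lower genes were 7 of 9 entry genes, 3 of 4 checkpoint genes, 1 of 7 kinases, 4 of 7 kinetochore genes, 3 of 10 kinesin and spindle genes, 3 of 6 chromosome structure genes and 1 of 3 passenger partners. Without DMSO 3 these were 8, 4, 5, 4, 6, 6 and 2, while the lower calls over all genes rose from 3203 to 4092. The roles were not tested against each other. MKI67 (log2 -0.10 ± 0.05), PLK4 (-0.09 ± 0.11), CENPF (-0.07 ± 0.08), CCNB1 (-0.09 ± 0.08), PLK1 (-0.18 ± 0.09), AURKA (-0.22 ± 0.10), BUB1 (-0.21 ± 0.10) and KIF20A (-0.34 ± 0.13) did not pass. CENPE was the gene that was higher, with 119 FPM in ATRA+Cfz, against 104, 96.8 and 105 FPM in ATRA libraries (log2 0.225 ± 0.08, adjusted p = 0.048, limma), and it passed in 9 of 16 other settings, not without DMSO 2 or any ATRA library. The count of lower genes was 13 from lane 1 alone (1470 over all genes tested) and 35 without DMSO 3 (4092). The main fit gave 3203 over all genes. The mitochondrial share was 5.72% in ATRA+Cfz and at most 3.89% in ATRA libraries, and its part in these differences was not tested.

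ATRA+Cfz against Cfz, 1 library against 1 in a fit that takes its spread from the DMSO and ATRA libraries, gave 41 lower genes and 0 higher (17.6% and 12.8% of all genes), with a median log2 of -0.75, while the median of all genes was -0.004. NCAPH had 32.3 FPM in ATRA+Cfz and 64.1 FPM in Cfz (log2 -0.98 ± 0.08), MKI67 had 392 and 776 FPM (log2 -0.98 ± 0.07), and CDC25A had 22.8 and 54.7 FPM (log2 -1.25 ± 0.10). CDK1 had 72.2 FPM in ATRA+Cfz and 132 FPM in Cfz (log2 -0.87 ± 0.08). AURKB (-1.07 ± 0.12), KIF20A (-1.06 ± 0.16), CCNA2 (-1.01 ± 0.09), FOXM1 (-0.93 ± 0.07), TOP2A (-0.84 ± 0.08), MAD2L1 (-0.84 ± 0.07), CENPF (-0.80 ± 0.10), KIF23 (-0.88 ± 0.09) and SMC2 (-0.78 ± 0.07) were among the larger falls. INCENP (-0.72 ± 0.08), BUB1 (-0.68 ± 0.12), PLK1 (-0.57 ± 0.10), CCNB1 (-0.51 ± 0.09) and CENPE (-0.38 ± 0.10) changed less. The genes that did not pass were AURKA (-0.22 ± 0.12), BUB3 (-0.18 ± 0.06), CKS2 (-0.27 ± 0.10), HMMR (-0.25 ± 0.10) and CDC25B (0.19 ± 0.07). Those 5 were also the members with the smallest ATRA changes without Cfz.

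The interaction, (ATRA+Cfz minus Cfz) minus (ATRA minus DMSO), tests whether the ATRA change differed after a Cfz pulse. It was negative for 1 gene, CDC25A, and positive for 0 (1.31% and 0.992% of all genes). CDC25A changed by -1.25 ± 0.10 with ATRA after Cfz and by -0.71 ± 0.06 without it (interaction -0.53 ± 0.11, adjusted p = 0.038, limma). It did not pass without DMSO 1, DMSO 2 or any ATRA library. Of the members, 3 had an unadjusted p under 0.05 (limma), against 2858 of the 15827 genes tested. The members' median interaction was 0.04, against 0.01 over all genes. CENPE (0.33 ± 0.11, adjusted p = 0.14), SPC24 (-0.40 ± 0.19), PLK4 (0.26 ± 0.16), AURKB (-0.25 ± 0.14) and MAD2L1 (-0.24 ± 0.09, adjusted p = 0.17, limma) did not pass. The interactions of the remaining genes named throughout (CDK1, CCNB1, PLK1, AURKA, BUB1, CENPF, KIF20A, TOP2A and MKI67) ran over -0.11 to 0.19 and did not pass either. An interaction that misses the threshold does not show that the 2 treatments added up, since the SEs run to 0.24. Without DMSO 3 the interaction passed for CDC25A (-0.57), AURKB (-0.33), BIRC5 (-0.28) and MAD2L1 (-0.26), and for CENPE with the opposite sign (0.27). Over all genes, the same fit gave 1035 negative and 951 positive interactions, against 207 and 157 with DMSO 3.

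**Figure D5:**
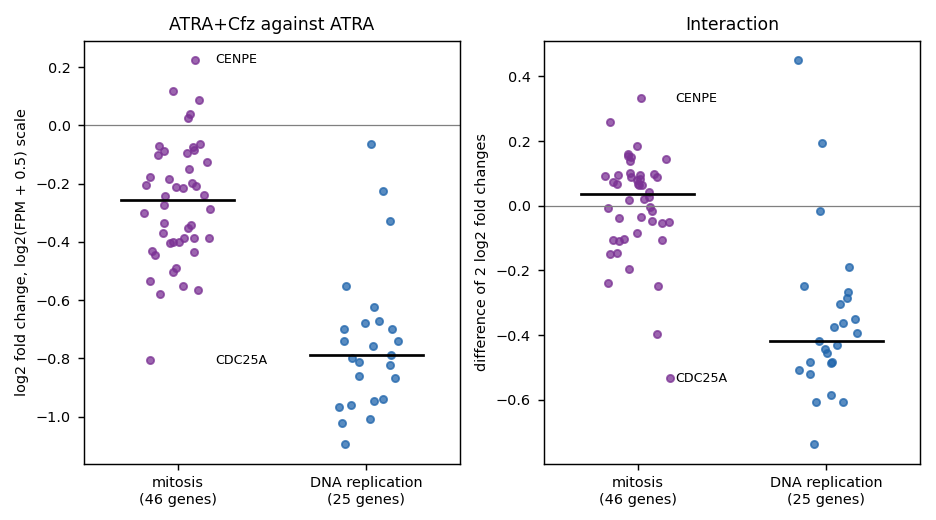
Log2 fold change of ATRA+Cfz against ATRA (left) and interaction (right, a difference of log2 fold changes) for the 46 mitosis genes and the 25 DNA replication genes, 1 point a gene, with a bar at each median. The medians are -0.26 for mitosis and -0.79 for replication genes on the left, and 0.04 and -0.42 on the right, where CDC25A is the lowest mitosis gene.

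DNA replication genes, which act in S phase before mitosis, gave another list in the same libraries. With ATRA the mitosis genes had a median log2 of -0.72 and the replication genes -0.77, with 24 of 25 replication genes lower (27.4% of all genes). In ATRA+Cfz against ATRA, 22 of 46 mitosis genes were lower (median -0.26), against 22 of 25 replication genes (median -0.79) and 20.2% of all genes. The interaction was negative for 1 of 46 mitosis genes (median 0.04), for 11 of 25 replication genes (median -0.42) and for 1.31% of all genes. The replication count, like that over all genes, depended on single libraries. It was 1 without ATRA 1 (2 over all genes tested), 2 without ATRA 2 (6) and 2 without ATRA 3 (11). It was 7 without DMSO 2 (101) and 16 without DMSO 3 (1035), against 207 over all genes in the main fit. The list's medians were -0.46 to -0.39 when 1 replicate was left out. The lists were not tested against each other. MCM5, a subunit of the replicative helicase, had 44.2 FPM in ATRA+Cfz, a mean of 95 FPM in ATRA libraries, 138 FPM in Cfz and a mean of 176 FPM in DMSO libraries. MCM4 and MCM6, of the same helicase, had interactions of -0.48 and -0.38. CDC25A, which acts at the start of S phase as well, had an interaction (-0.53) below the replication median. TTTGAA, present in the promoters of 28 of 40 mitosis genes, was in those of 0 of the 21 replication genes in the table, and CCAAT was in those of 14 of the 21 (66.7%).

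Other genes of mitosis, taken from lists that the members did not enter, went the same way in most lists. These lists, like the members, were chosen with earlier results of these data known. Over all genes tested, 27.4% were lower and 21.3% higher with ATRA (median log2 -0.03). Of 35 further centromere and kinetochore genes, 33 were lower with ATRA and 0 higher (median log2 -0.60). ZWINT, an outer kinetochore protein, averaged 70.8 ± 0.7 FPM in ATRA libraries and 133 ± 7 FPM in DMSO libraries (SD, n = 3 each). MIS18A, which helps load CENPA, changed by -0.97 ± 0.05, and KNL1, the platform for BUB1 at the kinetochore, by -0.77 ± 0.05. Spindle and cytokinesis genes gave 27 lower of 28 (median -0.82), led by TACC3 (-0.97 ± 0.04), GTSE1 (-0.90 ± 0.05) and ARHGAP11A (-0.82 ± 0.05). Condensin and cohesin genes gave 13 lower of 14 (median -0.52), with NCAPD3 at -0.76 ± 0.04, NCAPD2 at -0.73 ± 0.04 and NCAPG2 at -0.85 ± 0.05.

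Of 18 genes of the anaphase-promoting complex, 8 were lower and 5 higher with ATRA (27.4% and 21.3% over all genes; median -0.05, against -0.03). With the replicate number as a block 4 were higher, since ANAPC5 (log2 0.12, adjusted p = 0.041) no longer passed (adjusted p = 0.061, limma). ANAPC16, a small subunit of the complex, averaged 179 ± 5 FPM in ATRA libraries and 112 ± 2 FPM in DMSO libraries (log2 0.68 ± 0.04, adjusted p = 4.6e-08, limma). FBXO5, the inhibitor EMI1, and UBE2C, the complex's ubiquitin-conjugating enzyme, were lower, at -0.87 ± 0.06 and -0.81 ± 0.06. Of 11 MuvB and DREAM genes, 8 were lower (median -0.34). MYBL2 (B-MYB), the partner of MuvB in mitotic promoters, changed more than any of the 46 members, with 56.1 FPM in ATRA+Cfz, 92.8 ± 1.5 FPM in ATRA libraries, 186 FPM in Cfz and 227 ± 13 FPM in DMSO libraries (SD, n = 3; ATRA log2 -1.28 ± 0.04, adjusted p = 1.6e-09, limma). RBL1 (p107) and TFDP1, a partner of E2F factors, fell by 0.77 ± 0.04 and 0.64 ± 0.04. Of 16 other mitotic regulators, 13 were lower and 2 higher. WEE1, the kinase that restrains CDK1, fell by 0.88 ± 0.04 and MELK by 0.94 ± 0.06. CDKN1A (p21), an inhibitor of cyclin-dependent kinases, rose with ATRA: it had 62.6 FPM in ATRA+Cfz, 56.8 ± 1.5 FPM in ATRA libraries, 23.7 FPM in Cfz and 21.1 ± 0.3 FPM in DMSO libraries (ATRA log2 1.41 ± 0.05, adjusted p = 1.8e-09, limma).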

How the data were processed

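Values deposited by the authors are FPM (fragments scaled to 1000000, as in CPM) for each of 32 lanes, 4 per library. Per the submitters' processing notes, the tools were fastp 0.20.0, kallisto 0.46.2 and an unversioned DESeq2. No source used here gives the build, annotation or strand setting. Lanes were averaged, since no member's lanes differed beyond sampling noise. Groups came from the labels. All values were whole reads within 0.01 read (100.0%), which gives the total over the deposited genes. Whether these are reads as counted or rounded estimates is not stated. A floor of 3 reads is 0.175 to 0.212 FPM, and covers counting error only. FPM is not scaled to length, so levels are compared within a gene.

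Genes with a mean of the 4 group means of at least 0.5 FPM (15827) were fitted with limma 3.58.1 (trend) on log2(FPM + 0.5), all 8 libraries in 1 fit (4 residual and 7.2 prior degrees of freedom), with calls at an adjusted p (Benjamini-Hochberg, over all genes tested) under 0.05. Fold changes are on that log2 scale, the treated or combined group over the other, with SE. The fit was tested on simulated data. Of the 24249 gene IDs, symbols came from the deposited table for 17006, 6482 had one from GENCODE 29 and 754 from a gene name table. Alternatives were edgeR 4.0.16 and DESeq2 1.42.0 on the recovered reads, TMM and median-ratio scaling, other pseudocounts and filters, robust variance, lane 1 alone, ATRA and DMSO libraries alone, a replicate block and leaving out each replicate. Software was R 4.3.3. Promoters came from RefSeq (GRCh38.p14).

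All 46 members are named for ATRA against DMSO. For other comparisons the rule was the called members with the smallest p, at most 12, and a fixed set of 11 members, and for each further list the 3 called genes with the smallest p. Every other gene named in those comparisons (further called genes such as SPC24, PLK4, CDC25B and CDC20, genes that did not pass, and the gene ratios) was chosen after its values were seen. The members and lists were chosen with earlier results of these data known.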

Additional observations from a re-analysis of the deposited data

Results flagged for a closer look

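CDC25A, the CDC25 phosphatase of S phase and mitotic entry, was flagged because its interaction passed the threshold, as 1 of the 46 members. A negative interaction was called for 1.31% of all genes tested, so 1 call among the members is near that share. The interaction of CDC25A was -0.53 ± 0.11 (adjusted p = 0.038, limma). The levels were 22.8 FPM in ATRA+Cfz, 40.9, 41.6 and 38.2 FPM in ATRA, 54.7 FPM in Cfz, and 62.1, 66.8 and 69.9 FPM in DMSO libraries. ATRA+Cfz and Cfz are 1 library each, so no replicate supports the difference. The interaction passed in 9 of 16 other settings. Over the 16, its value was -0.58 to -0.46 and its adjusted p 0.0012 to 0.31. It did not pass with edgeR, from lane 1 alone, or without DMSO 1, DMSO 2 or any ATRA library.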

How the results depend on the processing

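With ATRA, 44 members were lower under median-ratio scaling, TMM scaling, edgeR and DESeq2 (BUB3 was lost), 42 from lane 1 alone (AURKA, BUB3 and CDC25C were lost) and 45 elsewhere. CDC25B was higher in all 18 alternatives. The Cfz count was 15 with median-ratio scaling (1856 over all genes), 18 with TMM scaling (1956) and 18 with edgeR (2057). It was 10 with DESeq2 (944) and 13 from lane 1 alone (863), against 2691 over all genes in the main fit. It was 19 to 30 when 1 replicate was left out (2226 to 3764 over all genes), with 0 to 1 higher (KIF4A, 0.16, without DMSO 3). In ATRA+Cfz against ATRA, 13 were lower from lane 1 alone (1470 over all genes, against 3203 in the main fit). When 1 replicate was left out, 18 to 35 were lower (2596 to 4092 over all genes). In that comparison 0 were higher with log2(FPM + 0.1), with no filter and from lane 1 alone (0 to 1 when 1 replicate was left out). The median of ATRA+Cfz against DMSO ran over -1.087 to -0.9487 when 1 replicate was left out, and 0 to 1 were higher in ATRA+Cfz against Cfz (CDC25B, 0.19, without DMSO 3). The negative interaction count was 0 with edgeR (172 over all genes) and from lane 1 alone (10). When 1 replicate was left out it was 0 to 4 (2 to 1035 over all genes), and the positive count 0 to 1 (0 to 951). Reversed in sign, none of them called, were the interactions of CDK1 (-0.013 with median-ratio scaling, -0.004 with TMM scaling, -0.012 with DESeq2, -0.032 without DMSO 3 and -0.003 without ATRA 1), KIF20A (0.082 from lane 1 alone), AURKA (-0.002 without DMSO 3) and PLK1 (0 without DMSO 3); with 1 replicate left out CDK1, AURKA and PLK1 ran over -0.032 to 0.045, -0.002 to 0.117 and 0 to 0.128. The cause of these changes was not tested.

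The replicate block gave 45 lower and 1 higher member with ATRA, and changed no call of a member. Of the further mitosis genes it lost 1 call, ANAPC5. Same-numbered DMSO and ATRA libraries shared only a number, with deviations correlated at -0.006, -0.002 and 0.006. Over all genes, 31.8% of Cfz calls were higher, against 46.3% with median-ratio and 43.6% with TMM scaling. For the interaction the share was 43.1%, against 27.5% and 31.9%. Scaling moved the median of all genes by at most 0.062 on the log2 scale. Over all genes, Cfz lower calls were 2691, against 944 with DESeq2 and 863 from lane 1 alone, and negative interactions 207, against 354 with median-ratio scaling and 10 from lane 1 alone. The replication list's negative interactions were 11, against 1 from lane 1 alone. Depth limits CDC25C most, at 88 reads in ATRA+Cfz.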
